A study of Mus musculus with 12 samples.

Results

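Cell division depends on an ordered set of kinases, kinetochore proteins, motors and ubiquitin-ligase activators, and 44 genes of this machinery were examined here, chosen by symbol from the 40406 entries of the count table. Cyclin B with the kinase CDK1 drives cells into mitosis, and the spindle assembly checkpoint delays anaphase until every kinetochore is held by microtubules. The checkpoint acts by restraining CDC20, the activator of the anaphase-promoting complex, and taxanes such as docetaxel engage it because they stabilise microtubules. Transcripts of most of these genes are made mainly late in the cell cycle, under FOXM1 and under B-MYB (Mybl2) with the MuvB complex. In a bulk culture they are therefore widely used as markers of dividing cells.

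RNA was sequenced from 4T1 cells, a triple-negative mammary carcinoma line of BALB/c mice, grown on poly-L-lysine. The cells were labelled integrin β3 wild type (WT) or knockout (KO) and were exposed for 24 h to the solvent DMSO or to 10 nM docetaxel (DTX), then left for 48 h in drug-free medium before harvest. The groups WT-DMSO, WT-DTX, KO-DMSO and KO-DTX each held 3 libraries, described as biological triplicates, and n = 3 for every group below. The way the knockout was made, and whether each genotype is 1 clone, were not stated in those labels.

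Total counts ran from 28729118 to 40801679 per library. Itgb3, the targeted gene, was at 60.1 to 71.4 CPM (read counts scaled to library size, with TMM factors) in WT-DMSO and at 62.4 to 66.7 CPM in KO-DMSO. Its transcript therefore did not separate the genotypes under DMSO (log2 difference −0.03 ± 0.08 SE, edgeR adjusted p = 0.874), and the cells are called knockout-labelled. After docetaxel it was lower in knockout-labelled cells (−0.41 ± 0.08, edgeR adjusted p = 0.00765), at 59.3 to 64.6 CPM in KO-DTX and 80.0 to 88.7 CPM in WT-DTX. WT-DMSO library 1 carries a free-text note naming the knockout, against its title and genotype label. Over 81 genes at least 2-fold apart between the genotypes after docetaxel, its mean signed log2 CPM was −0.155, beside −0.190 and −0.297 in the other WT-DMSO libraries and 1.28 to 1.35 in KO-DMSO. The epithelial genes Epcam and Cdh1 were at 309 to 553 and 506 to 705 CPM. Of 14 markers of other cell types, 4 passed the filter on low counts, and the leukocyte gene Ptprc was at 0.252 CPM or less in every library. Of those 4, 1 was lower and 0 higher with docetaxel in each genotype, at an edgeR adjusted p under 0.05. The same counts held for knockout-labelled against wild-type cells, under DMSO and after docetaxel. The summed level of these 14 markers was 46 to 66.4 CPM in WT-DMSO, 42.2 to 47.6 in WT-DTX, 30.3 to 42.1 in KO-DMSO and 35.7 to 42.9 in KO-DTX.

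All 44 mitosis genes passed the filter on low counts, with 385 to 34167 counts per gene and library. In wild-type cells docetaxel was followed by a rise of 10 of 44 and a fall of 1, none by more than 1.65-fold, beside 28.4% of all tested genes called in either direction. In knockout-labelled cells 2 rose and 0 fell, none by more than 1.36-fold, beside 16.1% of all tested genes. The largest increases in wild-type cells were those of Mybl2, Nuf2 and Foxm1. Under DMSO 11 of 44 differed between the genotypes, and after docetaxel 0 did, beside 15.8% and 5.89% of all tested genes.

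The genes were chosen by symbol, without use of promoter sequence. The elements searched include that of MuvB, already tied to late cell-cycle genes, so their shares are a description and not independent support. RefSeq windows (GRCm38.p6) were matched for 35 of the 44 genes, in 38 windows, and the 250 bases before each annotated start were searched on both strands. The CCAAT box (CCAAT), a site of the factor NF-Y, was in 28 of 38 windows (73.7%), beside 33.8% of all 32851 windows, which include noncoding genes. The cell cycle homology region, or CHR, was searched as TTTGAA or TTCGAA, the second being its own reverse complement, and is the element MuvB binds. It was in 14 of 38 windows (36.8%), beside 17.1% of all, and 34.2% held both elements, beside 6.02% of all. An E2F-like site spelled TTTGGCGC or TTTCCCGC was in 0 of 38, beside 1.3% of all. Other spellings of E2F sites were not searched. With so low a share in all windows, 0 of 38 does not show that these promoters lack E2F sites. The windows of Bub3 overlap, as do those of Ect2 and of Prc1, so some of their sites are counted more than once. Base composition was not matched between the windows compared, and a match of letters is not evidence of binding.

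The 150 bases before the annotated start are shown for 4 genes, with CCAAT and CHR letters on either strand in capitals. Cdk1 and Aurka rose in wild-type cells and hold such letters, Nuf2 rose and holds none, and Top2a holds the most of the 4 and did not pass the test in any comparison.
Cdk1, chr10:69352913-69353062, minus strand: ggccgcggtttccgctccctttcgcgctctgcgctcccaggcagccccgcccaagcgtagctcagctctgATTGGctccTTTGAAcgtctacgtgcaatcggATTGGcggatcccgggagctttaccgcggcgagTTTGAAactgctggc
Aurka, chr2:172370571-172370720, minus strand: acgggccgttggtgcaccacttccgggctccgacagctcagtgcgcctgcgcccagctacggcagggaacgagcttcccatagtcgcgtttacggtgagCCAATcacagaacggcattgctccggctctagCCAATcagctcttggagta
Nuf2, chr1:169531465-169531614, minus strand: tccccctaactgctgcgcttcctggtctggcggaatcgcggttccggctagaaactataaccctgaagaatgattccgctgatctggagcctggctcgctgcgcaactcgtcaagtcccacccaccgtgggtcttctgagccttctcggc
Top2a, chr11:99024190-99024339, minus strand: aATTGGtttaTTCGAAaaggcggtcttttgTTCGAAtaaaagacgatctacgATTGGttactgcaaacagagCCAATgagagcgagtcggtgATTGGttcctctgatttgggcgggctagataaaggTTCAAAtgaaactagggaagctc
In the Cdk1 window the CHR letters begin 71 and 15 bases before the start and the CCAAT letters 80 and 48 bases before it. The Aurka window has CCAAT letters at 51 and 19 bases and no CHR letters. Among the other genes that rose in wild-type cells, Plk1 has 1 CCAAT box in its 250-base window, Espl1 has 1 and a CHR, and Ccnb1 has 2. The overlapping Bub3 windows share the same 2 CCAAT boxes and CHR, and Mybl2 and Melk have neither element.

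**Figure D1:**
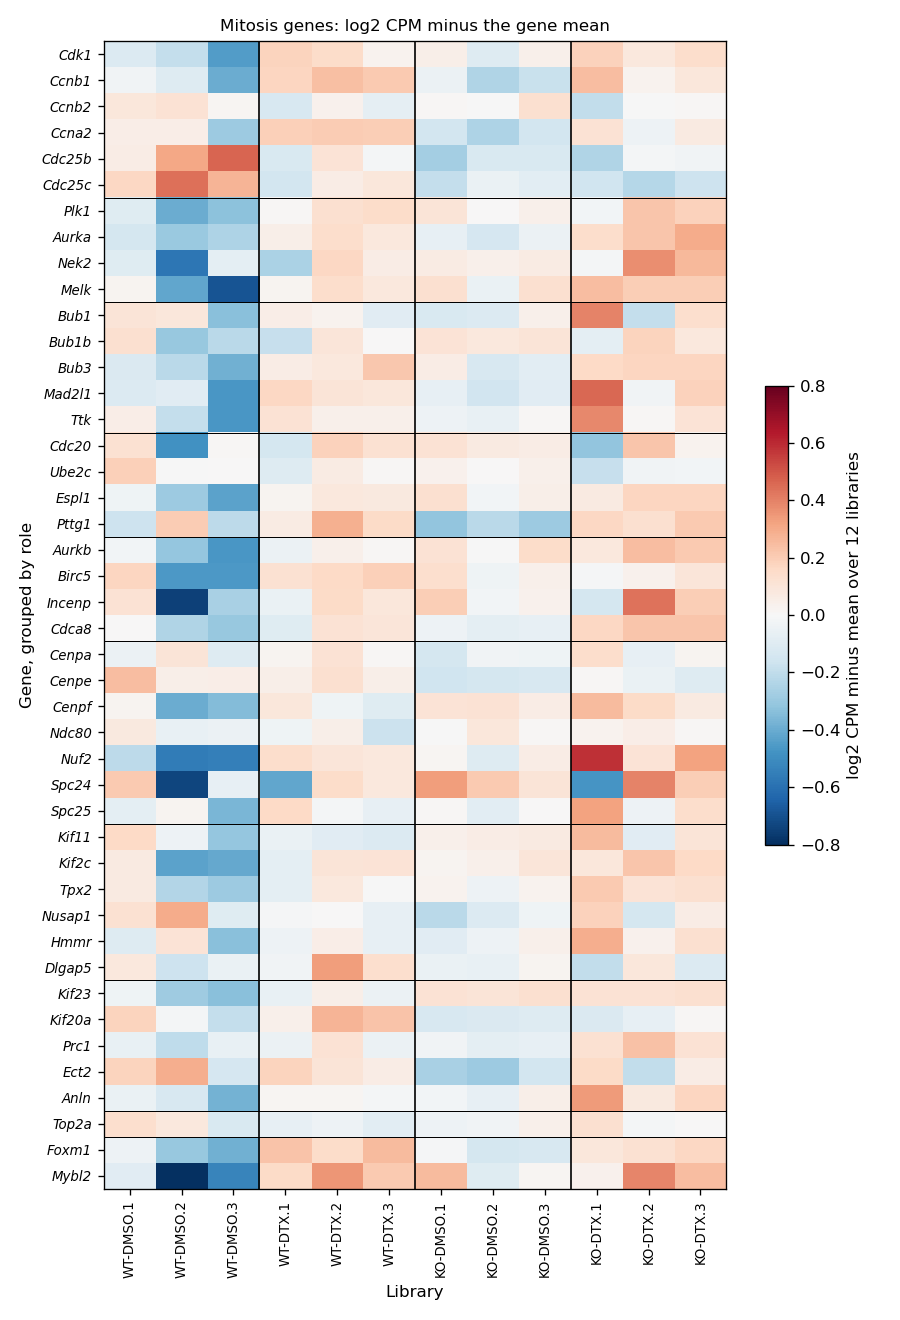
Level of each mitosis gene in the 12 libraries, as log2 CPM minus the mean of that gene over all libraries (colour scale from −0.8 to 0.8). Columns are libraries by group and rows are genes by role, with lines between groups and roles. WT-DMSO libraries 2 and 3 are the bluest columns, with medians over the 44 genes of −0.19 and −0.30, while WT-DMSO library 1 is at 0.04.

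The effect of docetaxel was examined first in wild-type cells, by edgeR's quasi-likelihood test fitted to all 15538 tested genes with Benjamini-Hochberg adjustment. Of all tested genes 28.4% were called, 14.5% higher and 13.8% lower, and of the 44 mitosis genes 10 (22.7%) were called higher and 1 (2.27%) lower. Their median log2 fold change was 0.19, with quartiles of 0.05 and 0.32, beside a median of 0.02 and quartiles of −0.26 and 0.32 over all tested genes. The sign was positive for 34 and negative for 10 of the 44. The 3 libraries of each group did not overlap for 14 genes upward and 1 downward, beside 21.2% and 19.3% of all tested genes. In bulk RNA, a change in the share of cells passing through mitosis and a change in transcript per cell cannot be told apart.

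Both transcription factors rose. The counts by role in wild-type cells stand beside 14.5% of all tested genes called higher and 13.8% lower. No role was tested as a set. Mybl2 (chromosome 2, 163054687 to 163084688 on GRCm38), which encodes B-MYB, was at 66.1, 36.5 and 48.8 CPM in the WT-DMSO libraries and at 78.3, 89.9 and 81.5 CPM in the WT-DTX libraries. Every WT-DTX value lay above every WT-DMSO value, and the WT-DMSO libraries spread nearly as widely as the groups differed. The log2 fold change was 0.72 ± 0.17 (edgeR adjusted p = 0.00628). Foxm1, the forkhead factor of late cell-cycle genes (chromosome 6, 128362967 to 128376146), went from 122, 102 and 96.5 CPM to 147, 139 and 150 CPM, again without overlap. Its log2 fold change was 0.44 ± 0.09 (edgeR adjusted p = 0.00241).

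Among the genes of the CDK1 engine, 2 rose and 1 fell. Cdk1, the kinase of mitotic entry, was at 136, 129 and 108 CPM in WT-DMSO and 166, 163 and 150 CPM in WT-DTX (log2 fold change 0.36 ± 0.09, edgeR adjusted p = 0.00967). Ccnb1, its cyclin B1 partner, was at 129, 122 and 99.7 CPM and then at 148, 155 and 152 CPM (0.38 ± 0.10, edgeR adjusted p = 0.0109). The groups did not overlap for either gene, and WT-DMSO library 3 was the lowest of all for both. Ccnb2, the second B-type cyclin, did not pass, at −0.12 ± 0.08 (edgeR adjusted p = 0.267). Ccna2, cyclin A2, was at 161, 161 and 127 CPM in WT-DMSO and 177, 179 and 178 CPM in WT-DTX, a change of 0.25 ± 0.09 that missed the threshold (edgeR adjusted p = 0.0564). Cdc25c, a phosphatase that activates CDK1, fell from 29.5, 35.7 and 31.7 CPM to 23.7, 27.3 and 27.9 CPM (−0.30 ± 0.10, edgeR adjusted p = 0.0324). Its relative Cdc25b went from 117, 139 and 155 CPM to 103, 121 and 111 CPM (−0.29 ± 0.11, edgeR adjusted p = 0.0518), with overlap between the groups.

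Of the 4 mitotic kinases outside the checkpoint, 3 rose, beside 14.5% of all tested genes called higher. Plk1, which promotes mitotic entry and spindle assembly, was at 128, 104 and 109 CPM in WT-DMSO and at 138, 150 and 152 CPM in WT-DTX (log2 fold change 0.37 ± 0.09, edgeR adjusted p = 0.00951). Aurka, the centrosomal aurora kinase, was at 86.4, 77.6 and 80.3 CPM and then at 98.4, 105 and 101 CPM (0.32 ± 0.07, edgeR adjusted p = 0.00666). The WT-DMSO values of Aurka and of Plk1 all lay below their WT-DTX values. Melk, a kinase of dividing cells, was at 38.7, 28.6 and 23.6 CPM and then at 38.7, 42.0 and 40.4 CPM (0.42 ± 0.14, edgeR adjusted p = 0.0338), so WT-DMSO library 1 was level with the lowest WT-DTX library. Nek2, a centrosomal kinase, did not pass (0.24 ± 0.14, edgeR adjusted p = 0.227).

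Of the 5 checkpoint genes only Bub3 passed, from 101, 94.1 and 83.9 CPM to 114, 116 and 127 CPM (log2 fold change 0.36 ± 0.09, edgeR adjusted p = 0.00686). BUB3 brings the checkpoint kinases to kinetochores. Mad2l1, whose product sequesters CDC20, was at 43.2, 43.8 and 33.7 CPM and then at 52.2, 50.0 and 49.7 CPM, without overlap (0.33 ± 0.12, edgeR adjusted p = 0.0546). Bub1b, which encodes the inhibitor BUBR1, was at 194, 144 and 153 CPM and then at 156, 190 and 178 CPM. Those values overlapped, and the change was 0.10 ± 0.11 (edgeR adjusted p = 0.557). The checkpoint kinase genes Bub1 and Ttk had changes of 0.03 ± 0.14 and 0.25 ± 0.12 and did not pass.

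Of the 4 anaphase genes 1 passed: Espl1, the protease separase that cleaves cohesin, went from 76.9, 64.4 and 58.4 CPM to 79.8, 83.5 and 83.1 CPM (log2 fold change 0.30 ± 0.09, edgeR adjusted p = 0.0269). Cdc20 was at 144, 94.6 and 133 CPM in WT-DMSO and 120, 150 and 144 CPM in WT-DTX, with overlap (0.16 ± 0.15, edgeR adjusted p = 0.481). The ubiquitin-conjugating enzyme gene Ube2c, which serves the anaphase-promoting complex, had a change of −0.07 ± 0.08. Pttg1, securin, the inhibitor of separase, had one of 0.22 ± 0.10 and did not pass (edgeR adjusted p = 0.136).

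None of the 4 chromosomal passenger genes passed in wild-type cells, although all 4 changes were positive. At an unadjusted p under 0.05 there were 3 of these 4, beside 6183 of all 15538 tested genes. Aurkb, the kinase of this complex, was at 87.8, 72.0 and 64.6 CPM in WT-DMSO and at 86.3, 92.0 and 89.8 CPM in WT-DTX (log2 fold change 0.26 ± 0.10, edgeR adjusted p = 0.0738). Birc5, survivin, had the value 102 CPM in WT-DMSO library 1, 65.8 and 65.7 CPM in libraries 2 and 3, and 98.6, 101 and 103 CPM in WT-DTX (0.37 ± 0.13, edgeR adjusted p = 0.0514). Library 1 of WT-DMSO thus stood with the docetaxel libraries for this gene, as it did for Aurkb. The scaffold gene Incenp and the borealin gene Cdca8 had changes of 0.32 ± 0.18 and 0.21 ± 0.09.

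Among 7 centromere and kinetochore genes only Nuf2 (chromosome 1, 169497934 to 169531464) passed. NUF2 is part of the NDC80 complex, which holds microtubule ends. It rose from 29.4, 23.1 and 23.3 CPM to 37.5, 36.4 and 36.1 CPM (log2 fold change 0.54 ± 0.12, edgeR adjusted p = 0.00533). The genes of its 3 complex partners did not pass, with log2 fold changes of −0.04 ± 0.08 for Ndc80, 0.11 ± 0.23 for Spc24 and 0.16 ± 0.12 for Spc25. Cenpa, the histone H3 variant of centromeres, was at 115, 128 and 111 CPM and then at 121, 129 and 120 CPM (0.06 ± 0.08, edgeR adjusted p = 0.628). The kinetochore motor gene Cenpe and the kinetochore protein gene Cenpf had changes of −0.04 ± 0.08 and 0.22 ± 0.10.

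No gene passed among the 6 of spindle motors and assembly, the 5 of cytokinesis and Top2a. Kif11, the motor that separates spindle poles, had a log2 fold change of −0.03 ± 0.11, and Kif2c, a microtubule depolymerase, one of 0.28 ± 0.12. Tpx2, which activates aurora A on the spindle, had one of 0.14 ± 0.09, and the spindle genes Nusap1, Hmmr and Dlgap5 had values of −0.14 to 0.20. The cytokinesis genes Kif23, Kif20a, Prc1, Ect2 and Anln lay between −0.00 and 0.19. Top2a, the topoisomerase that untangles chromosomes, was at 784, 759 and 656 CPM in WT-DMSO and 684, 696 and 674 CPM in WT-DTX (−0.10 ± 0.08, edgeR adjusted p = 0.419). Its groups overlapped, and a 95% interval of −0.29 to 0.10 covers its log2 fold change.

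**Figure D2:**
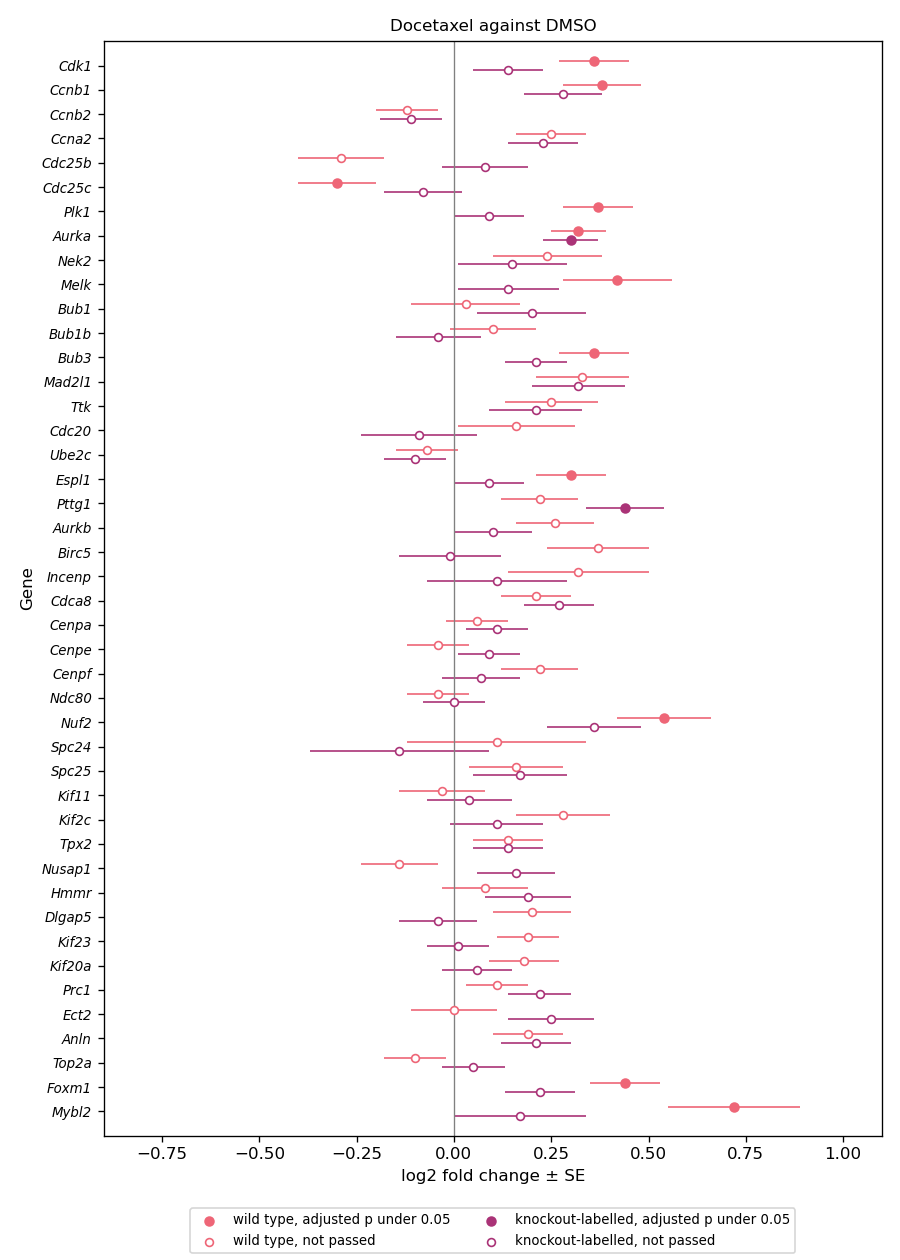
Log2 fold change (± SE) of each mitosis gene with docetaxel, in wild-type and knockout-labelled cells, filled where the edgeR adjusted p was under 0.05. In wild-type cells 10 genes are filled to the right of 0 and Cdc25c to the left, and in knockout-labelled cells Aurka and Pttg1 are filled.

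The WT-DMSO libraries differed most among themselves, and the wild-type calls changed with the WT-DMSO or WT-DTX library left out. The median coefficient of variation of the 44 genes was 13.8% in WT-DMSO, beside 5.24% in WT-DTX, 3.69% in KO-DMSO and 6.76% in KO-DTX. Over 10412 well-expressed genes the same medians were 11.8%, 6.72%, 5.75% and 9.43%. WT-DMSO library 1 was the highest of its group for 31 of the 44 genes, and library 3 was the lowest for 26. The noncoding feature Gm23935 took 1.62%, 3.98% and 0.435% of the counts in WT-DMSO libraries 1 to 3, and the median of AT-rich minus GC-rich genes was 0.01, 0.26 and −0.21 on the log2 scale. The part of these features in the calls was not tested.

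The number called was 24 without WT-DMSO library 1 (22 higher and 2 lower), where 29.9% of all tested genes were called. It was 8 to 13 without any other single library, where 19.2% to 30.4% of all tested genes were called. Without WT-DMSO libraries 1 and 2, the 2 richest in Gm23935, it was 24 (23 higher and 1 lower), beside 24.3% of all tested genes. That fit was added after the data were seen, and it takes the lone WT-DMSO library to vary like the other groups. Cdk1, Ccnb1, Aurka, Bub3, Nuf2, Foxm1 and Mybl2 kept their call under all 25 alternatives, and the range for Mybl2 was 0.53 to 0.96. Plk1 lost its call without WT-DMSO library 2 and KO-DTX library 3 together (edgeR adjusted p = 0.0592). Melk and Espl1 lost theirs without WT-DMSO library 2 or 3 or any 1 WT-DTX library, with edgeR adjusted p of 0.0616 to 0.135 and 0.0533 to 0.114. Without WT-DMSO library 3 the change of Melk was 0.26, and without libraries 1 and 2 it was 0.78. Melk and Espl1 also lost their calls without WT-DMSO library 2 and KO-DTX library 3 and in a fit of the 6 WT libraries alone. Cdc25c lost its call without WT-DMSO library 2 or 3 or WT-DTX library 1 or 2 (edgeR adjusted p = 0.054 to 0.139). It also lost it without WT-DMSO library 2 and KO-DTX library 3 (0.166), without WT-DMSO libraries 1 and 2 (0.13), in a fit of the 6 WT libraries alone (0.0952) and without a filter on low counts (0.0963).

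**Figure D3:**
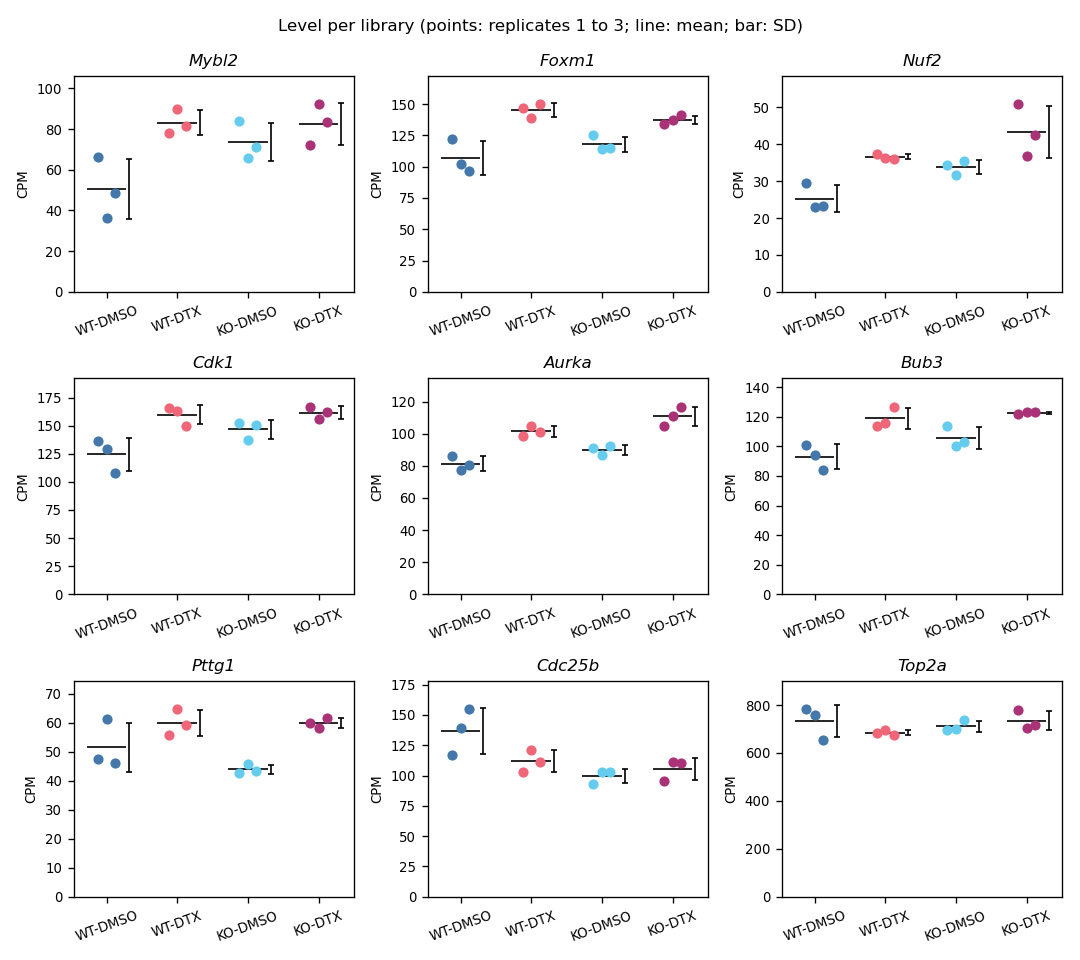
Level in CPM of 9 mitosis genes in each library, with the mean (line) and SD (bar) of each group on axes that start at 0. Mybl2, Foxm1, Nuf2, Cdk1, Aurka and Bub3 have all WT-DTX points above all WT-DMSO points. The Top2a points of DMSO and docetaxel overlap in each genotype, and its KO-DTX points all lie above its WT-DTX points.

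In knockout-labelled cells 2 of 44 genes (4.55%) rose with docetaxel and 0 fell, beside 9.09% of all tested genes called higher and 16.1% called in either direction. The median log2 fold change was 0.12, with quartiles of 0.04 and 0.21, beside 0.00 for all tested genes. Positive values numbered 35 of 44, and 15 genes upward and 1 downward had no overlap between the groups, beside 19.2% and 18.5% of all tested genes. At an unadjusted p under 0.05 there were 12, beside 4731 of all 15538 tested genes.

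Pttg1 (chromosome 11, 43420250 to 43426251) was at 42.7, 45.7 and 43.4 CPM in KO-DMSO and at 59.7, 58.0 and 61.5 CPM in KO-DTX. Both groups were tight and well apart, with a rise of 0.44 ± 0.10 on the log2 scale (edgeR adjusted p = 0.0109), a call kept under all 25 alternatives. Aurka rose from 91.1, 86.6 and 92.3 CPM to 105, 111 and 117 CPM (0.30 ± 0.07, edgeR adjusted p = 0.015) and was the 1 gene that rose in both genotypes. That call was lost without KO-DMSO library 2 (0.075), without KO-DTX library 3 (0.0805) and without WT-DMSO library 2 and KO-DTX library 3 together (0.0658, all edgeR adjusted p).

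Other members that rose in wild-type cells had smaller values here. Cdk1 was at 152, 137 and 151 CPM in KO-DMSO and 167, 156 and 162 CPM in KO-DTX, without overlap (log2 fold change 0.14 ± 0.09, edgeR adjusted p = 0.309). Ccnb1 went from 127, 111 and 116 CPM to 156, 134 and 140 CPM (0.28 ± 0.10, edgeR adjusted p = 0.0636). Foxm1 was at 125, 114 and 115 CPM and then at 134, 137 and 141 CPM, also without overlap, and did not pass (0.22 ± 0.09, edgeR adjusted p = 0.106). Nuf2 had values of 34.4, 31.6 and 35.4 CPM and then 50.9, 36.7 and 42.4 CPM (0.36 ± 0.12, edgeR adjusted p = 0.0573). Mybl2 overlapped, at 84.0, 65.9 and 71.2 CPM and 72.0, 92.3 and 83.6 CPM (0.17 ± 0.17, edgeR adjusted p = 0.548), as did Plk1 at 147, 137 and 141 CPM and 135, 160 and 156 CPM (0.09 ± 0.09, edgeR adjusted p = 0.574). For the checkpoint, Mad2l1 was at 44.5, 41.9 and 43.8 CPM and then 64.2, 45.8 and 53.0 CPM, and Bub3 at 114, 100 and 103 CPM and then 122, 123 and 123 CPM. Neither passed (0.32 ± 0.12 and 0.21 ± 0.08, edgeR adjusted p = 0.0827 and 0.103).

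The remaining core genes also did not pass in knockout-labelled cells. Ccna2 was at 140, 131 and 140 CPM in KO-DMSO and 168, 151 and 163 CPM in KO-DTX, without overlap (log2 fold change 0.23 ± 0.09, edgeR adjusted p = 0.104). Cdc20 was at 143, 139 and 138 CPM and then at 106, 154 and 135 CPM, and Bub1b at 192, 188 and 191 CPM and then at 168, 201 and 188 CPM. KO-DTX library 1 was the lowest of its group for both. The log2 fold changes of Cdc20 and Bub1b were −0.09 ± 0.15 and −0.04 ± 0.11. Cenpa was at 108, 117 and 116 CPM and then at 131, 114 and 121 CPM, and Top2a at 696, 702 and 736 CPM and then at 780, 706 and 717 CPM (0.11 ± 0.08 and 0.05 ± 0.08).

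KO-DTX library 1 stood apart from its group for several members. It had the highest Nuf2, Mad2l1, Bub1, Ttk and Anln and the lowest Spc24, Cdc20 and Incenp, and its AT-rich minus GC-rich median was 0.43, beside −0.18 and 0.03 in the other KO-DTX libraries. The number of members called was 6 without WT-DMSO library 1 or 3, 4 without WT-DMSO library 2, 5 without KO-DTX library 2, 1 without KO-DTX library 3 or KO-DMSO library 2, and 2 without any other single library. Of all tested genes 17.6% to 18.1% were called without 1 WT-DMSO library, 17.2% without KO-DTX library 2, and 9.41% and 8.21% without KO-DTX library 3 and KO-DMSO library 2. Without WT-DMSO libraries 1 and 2 together 9 members rose, beside 19.8% of all tested genes. Median transcript GC content was 47.5% for the 44 genes and 49.7% for 9957 well-expressed protein-coding genes, and 14 of the 44 were in the AT-richest quintile of those genes.

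The difference between the docetaxel effects of the genotypes was tested as an interaction. Of the 44 genes 0 passed, beside 0.109% of all tested genes, and DESeq2 and limma-voom also called 0. At an unadjusted p under 0.05 there were 3, Cdc25b, Plk1 and Mybl2, beside 1714 of all 15538 tested genes. The interaction of Mybl2 was −0.56 ± 0.24 on the log2 scale (edgeR adjusted p = 0.42), that of Plk1 was −0.28 ± 0.13 (0.449) and that of Cdc25b was 0.38 ± 0.15 (0.391). For Aurka it was −0.02 ± 0.11, with a 95% interval of −0.26 to 0.23. Intervals of this width leave room for sizeable differences, and the calls above do not show that the genotypes responded unlike each other. Without WT-DMSO library 1, Birc5 and Mybl2 passed, and without WT-DMSO libraries 1 and 2, Melk and Birc5 did, each with a lower docetaxel effect in knockout-labelled cells. Of all tested genes 2.7% and 1.33% passed in those fits.

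The genotypes were then compared under DMSO, a comparison that shares its WT-DMSO libraries with the wild-type docetaxel comparison. Knockout-labelled cells had 7 of 44 genes (15.9%) higher and 4 (9.09%) lower, beside 6.60% and 9.20% of all tested genes (15.8% in either direction). The median log2 difference, knockout-labelled minus wild type, was 0.13, beside 0.01 over all tested genes. Without overlap between libraries there were 9 genes upward and 5 downward, beside 15.7% and 16.9% of all tested genes. The genes called higher were Mybl2, Nuf2, Aurkb, Kif23, Plk1, Cenpf and Espl1, and those called lower were Cdc25b, Cdc25c, Ect2 and Cenpe.

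Cdc25b (chromosome 2, 131186949 to 131198497) was at 117, 139 and 155 CPM in WT-DMSO and at 93.1, 103 and 103 CPM in KO-DMSO, without overlap. Its log2 difference was −0.46 ± 0.11 (edgeR adjusted p = 0.00945), a call kept under 24 of 25 alternatives and lost without KO-DMSO library 1 (0.0527). Cdc25c was at 23.0, 25.3 and 24.8 CPM in KO-DMSO, all below its WT-DMSO values (−0.41 ± 0.10, edgeR adjusted p = 0.0112), and was kept under 21 of 25. Cdc25b and Cdc25c, the CDC25 phosphatase genes of the set examined, thus were both lower in knockout-labelled cells under DMSO. Ect2, the exchange factor that activates RhoA at the cleavage furrow, was at 145, 157 and 117 CPM in WT-DMSO and 107, 105 and 116 CPM in KO-DMSO (−0.35 ± 0.11, edgeR adjusted p = 0.0458). Cenpe was at 190, 165 and 166 CPM and at 143, 145 and 146 CPM (−0.26 ± 0.08, edgeR adjusted p = 0.0313).

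In the other direction, Kif23, a kinesin of the central spindle, was at 108, 90.6 and 87.5 CPM in WT-DMSO and 120, 119 and 121 CPM in KO-DMSO (log2 difference 0.33 ± 0.08, edgeR adjusted p = 0.0159). Aurkb was at 96.6, 89.1 and 98.9 CPM in KO-DMSO, all above WT-DMSO (0.34 ± 0.10, edgeR adjusted p = 0.0345). Cenpf was at 223, 167 and 173 CPM and at 237, 238 and 229 CPM (0.32 ± 0.10, edgeR adjusted p = 0.048). Of the 7 genes called higher, Mybl2 was the 1 whose groups overlapped, since its KO-DMSO library 2 (65.9 CPM) lay just below WT-DMSO library 1 (66.1 CPM). Its log2 difference was 0.55 ± 0.17 (edgeR adjusted p = 0.0417) and 0.36 without WT-DMSO library 2 (0.143). Plk1, Nuf2 and Espl1 had log2 differences of 0.32 ± 0.09, 0.42 ± 0.12 and 0.30 ± 0.09 (edgeR adjusted p = 0.033, 0.0317 and 0.0466).

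None of these 11 calls held under all 25 alternatives, and all kept their sign. The number called was 0 without KO-DMSO library 1, where 7.9% of all tested genes were called, and 17 without WT-DMSO library 1, where 20.5% were. It was 5 without WT-DMSO library 3 (11.9% of all tested genes), 2 without WT-DMSO library 2 (9.93%) or KO-DMSO library 3 (9.83%), and 3 without KO-DMSO library 2 (10.7%). It was 4 without WT-DTX library 3 (12.9%) or KO-DTX library 3 (12.8%), and 7 without WT-DTX library 1 (14.2%) or 2 (13.7%). Without WT-DMSO libraries 1 and 2 the difference of Ect2 was −0.09 (edgeR adjusted p = 0.703). Without WT-DMSO library 2 or 3 no gene was called higher.

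After docetaxel 0 of 44 genes differed between the genotypes by edgeR's test, beside 5.89% of all tested genes, and DESeq2 and limma-voom also called 0. At an unadjusted p under 0.05 there was 1, beside 2805 of all 15538 tested genes. This was Kif20a, a kinesin of cytokinesis, whose log2 difference was −0.23 ± 0.09 (edgeR adjusted p = 0.191). Ratios of knockout-labelled to wild type lay between 0.85 and 1.18. The libraries did not overlap for 8 genes upward and 5 downward, beside 11.9% and 13.2% of all tested genes. Mybl2, Foxm1 and Plk1 had log2 differences of −0.01 ± 0.17, −0.08 ± 0.09 and 0.03 ± 0.09, and Cdc25b had one of −0.08 ± 0.11. The difference of Cdc25c, which was lower under DMSO, was −0.19 ± 0.10 (edgeR adjusted p = 0.336), with KO-DTX at 23.5, 22.4 and 23.4 CPM and WT-DTX at 23.7, 27.3 and 27.9 CPM. Whether the genotype differences under DMSO and after docetaxel differed is the interaction given above.

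**Figure D4:**
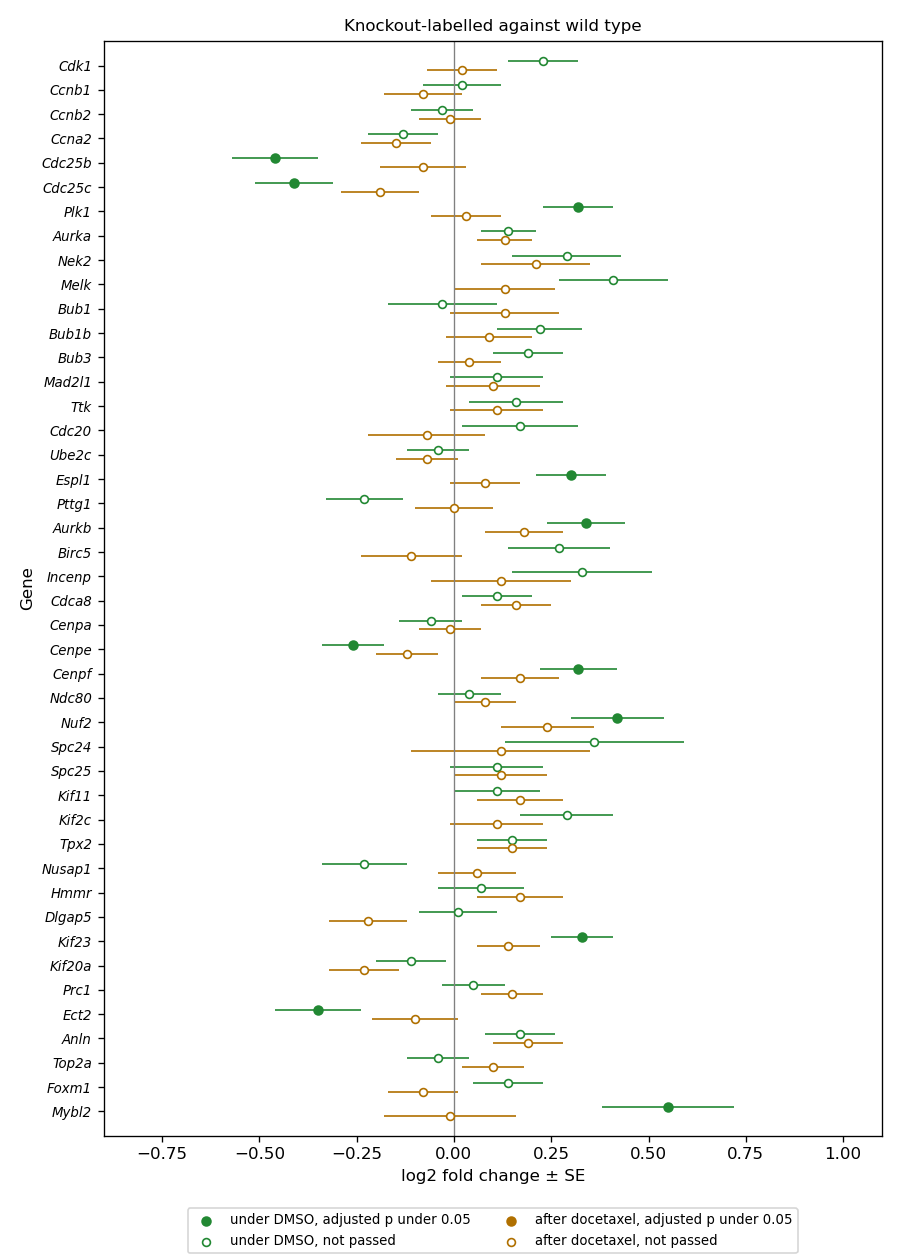
Log2 difference (± SE) of each mitosis gene, knockout-labelled against wild type, under DMSO and after docetaxel, filled where the edgeR adjusted p was under 0.05. Under DMSO 7 genes are filled to the right of 0 and 4 to the left, and after docetaxel none is filled.

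The level of each gene per kilobase of annotated exon kept a similar order across groups. Ccnb2 and Ube2c were the highest in every group, at 104 and 91.2 CPM per kb in WT-DMSO and 95.4 and 82.6 CPM per kb in KO-DTX. Nuf2 was the lowest in WT-DMSO at 3.98 CPM per kb, and Cdc25c the lowest in the other 3 groups at 4.7 to 5.34 CPM per kb. The length is that of all annotated exons joined, so genes with long rarely used exons are understated.

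Other genes of mitosis outside the 44 were examined for context, 148 in all. In wild-type cells 33 rose (22.3%) and 9 fell (6.08%) with docetaxel, beside 14.5% and 13.8% of all tested genes, and the median log2 fold change was 0.07. In knockout-labelled cells 13 rose (8.78%) and 2 fell, beside 9.09% of all tested genes called higher, with a median of 0.08. Of the 13 MuvB and E2F regulators 7 rose (53.8%, beside 14.5%) and 1 fell in wild-type cells, and 2 rose in knockout-labelled cells (15.4%, beside 9.09%). Lin54, the MuvB subunit that contacts the CHR, was at 33.5, 38.4 and 29 CPM in WT-DMSO and 57.5, 49.0 and 54.2 CPM in WT-DTX. In knockout-labelled cells it went from 36.7, 34.9 and 36.6 CPM to 59.2, 52.0 and 55.8 CPM, so both genotypes had separate groups. Its log2 fold changes were 0.67 ± 0.10 and 0.63 ± 0.10 (edgeR adjusted p = 0.000444 and 0.00104). In wild-type cells Tfdp1, a partner of E2F factors, had one of 0.65 ± 0.11 and the repressor gene E2f8 one of 0.69 ± 0.18, while in knockout-labelled cells the MuvB subunit gene Lin9 had one of 0.59 ± 0.13.

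Ckap2l, a spindle protein gene, had a larger log2 fold change than any of the 44 in knockout-labelled cells. It was at 144, 140 and 118 CPM in WT-DMSO and 213, 208 and 208 CPM in WT-DTX, and at 150, 156 and 158 CPM in KO-DMSO and 223, 220 and 229 CPM in KO-DTX. These groups were far apart, with log2 fold changes of 0.65 ± 0.08 and 0.54 ± 0.08 (edgeR adjusted p = 0.000104 and 0.000501). Mis12, a kinetochore gene, rose by 0.67 ± 0.12 in wild-type cells, and Nek7, a kinase of the spindle and of the NLRP3 inflammasome, fell by 0.73 on the log2 scale (edgeR adjusted p = 0.00133 and 0.000428). In knockout-labelled cells the histone H3 kinase gene Haspin had a change of 0.61 ± 0.12, and the augmin subunit genes Haus3 and Haus6 had changes of 0.59 ± 0.18 and 0.44 ± 0.13 (edgeR adjusted p = 0.00323, 0.0392 and 0.0325). Of the 17 genes of the anaphase-promoting complex and its regulators 0 rose in either genotype, and 2 fell in wild-type cells (11.8%, beside 13.8% of all tested genes).

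DNA replication genes, which peak earlier in the cycle, had a higher median change than the mitosis genes in wild-type cells. Of 45 such genes 27 rose (60.0%, beside 14.5% of all tested genes) and 0 fell with docetaxel, with a median log2 fold change of 0.47, beside 0.19 for the 44. In knockout-labelled cells 4 of 45 rose (8.89%, beside 9.09% of all tested genes), with a median of 0.13, beside 0.12. Under DMSO their median genotype difference was 0.38, beside 0.13. Their median interaction was −0.36, beside −0.04 for the 44, and 0 of the 45 passed that test by edgeR. Of the 45, 13 had an unadjusted p under 0.05, beside 1714 of all 15538 tested genes. The medians are descriptions of these lists, and the difference between the lists was not tested. In WT-DMSO libraries 1 to 3 the median deviation of the replication genes was 0.05, −0.38 and −0.59, in the same order of libraries as that of the mitosis genes (0.04, −0.19 and −0.30).

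**Figure D5:**
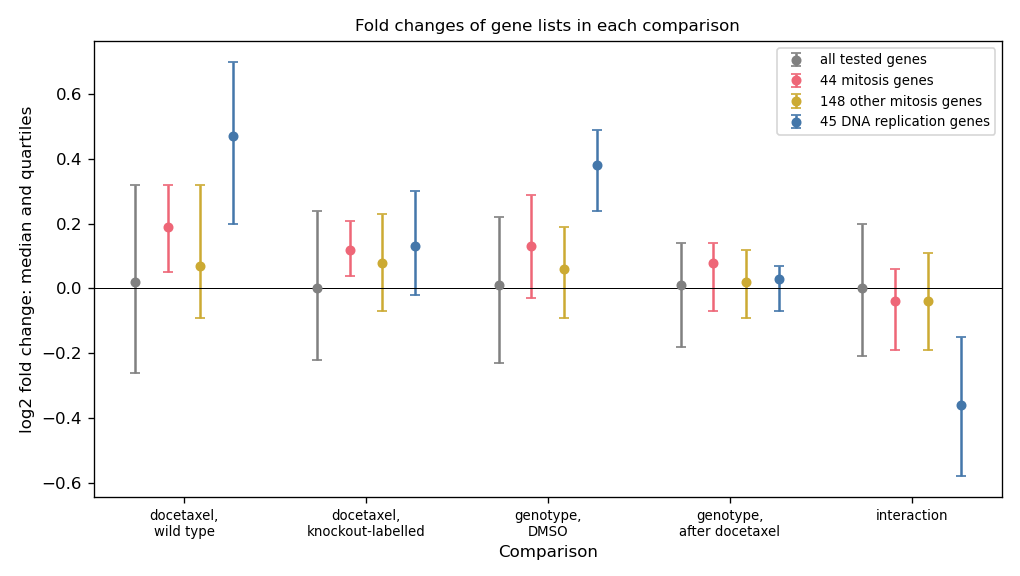
Median log2 fold change (point) with the lower and upper quartiles (bars) of 4 gene lists in 5 comparisons. The 44 mitosis genes stay between −0.04 and 0.19, and the 45 DNA replication genes reach 0.47 with docetaxel in wild-type cells.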

How the data were processed

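The authors deposited 1 table of unnormalised gene counts with a column for each library, made from paired-end reads of RNA depleted of ribosomal RNA. STAR 2.5.1a, featureCounts 1.4.6-p5 and bcl2fastq are named in the submitters' processing notes, with build, annotation and strand setting not given in the sources used here. Of 40757 entries, 351 that repeated another in symbol and counts (0.907% of counts) were removed. Symbols were matched to GENCODE M21 for position, exon length and transcript GC content. Genes were filtered with filterByExpr, scaled by TMM and tested with edgeR 4.0.16 in R 4.3.3 (quasi-likelihood, 1 mean per group, 12 libraries), two-sided, with Benjamini-Hochberg adjustment over 15538 genes and a threshold of 0.05. Each SE is the absolute log2 fold change over the square root of F, and 95% intervals use 8 residual degrees of freedom. The edgeR p-values rest on more degrees of freedom, shared across genes, so these intervals are wider than the tests imply. For the interaction of Plk1 the unadjusted edgeR p was 0.049, with an interval of −0.59 to 0.02. Alternatives were DESeq2 1.42.0, limma-voom (limma 3.58.1), RLE and upper-quartile scaling, other filters, a fit of protein-coding genes, a fit of each contrast's own libraries, a replicate block, a lowess GC correction (span 0.3), repeated entries kept, omission of WT-DMSO library 2 with KO-DTX library 3, and omission of each library. The pair was planned as the 2 libraries richest in Gm23935, which the counts show to be WT-DMSO libraries 2 and 1, so omission of these was added after the data were seen. The edgeR step was tested on simulated data. Values per library are given for 12 core genes and for up to 3 called genes per role with the largest changes, and for up to 6 other mitosis genes per docetaxel comparison (called, at least 5 CPM). Birc5 was added after its values were seen. The 44 genes, lists and tests were chosen with earlier results of these data known.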

Additional observations from a re-analysis of the deposited data

How the results depend on the processing

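Every called change kept its sign under all alternatives. The share of all tested genes called also changed between alternatives, so a change in the number of members called is not by itself a result about them. For docetaxel in wild-type cells that share ran from 16.2% (no filter on low counts) to 34.3% (protein-coding genes), beside 28.4%. For docetaxel in wild-type cells the 11 calls became 8 to 24 when 1 library was left out, 24 without the 2 libraries richest in Gm23935 (WT-DMSO 1 and 2, an alternative chosen after seeing the data), and 8 to 15 otherwise. In knockout-labelled cells the 2 calls became 6 with DESeq2, 4 without a filter on low counts, 5 with at least 1 CPM in 3 libraries, 4 with the GC correction, 1 without WT-DMSO library 2 and KO-DTX library 3, 9 without the 2 libraries richest in Gm23935, 4 with the libraries of the contrast alone, and 1 to 6 when 1 library was left out. For the genotypes under DMSO the 11 calls became 1 without WT-DMSO library 2 and KO-DTX library 3, 2 with the libraries of the contrast alone, and 0 to 17 when 1 library was left out. After docetaxel 0 were called under every alternative. For the interaction, Mybl2 was called without a filter on low counts (1 call), 2 genes without the 2 libraries richest in Gm23935, and 0 to 2 genes when 1 library was left out. Of all tested genes, the interaction called 1.06% with DESeq2 and 2.7% without WT-DMSO library 1, beside 0.109%, and the genotypes under DMSO 7.98% without WT-DMSO library 2 and KO-DTX library 3, beside 15.8%. The cause of these shifts was not tested. With the replicate number as a block, 14, 3, 8, 0 and 0 members were called in the 5 comparisons in the order above. Replicate numbers did not pair the samples consistently. Deviations from group means correlated above 0.1 in 8 of 18 same-numbered pairs over 10412 genes (−0.64 to 0.68). The highest value was for library 1 of WT-DTX and KO-DTX, and shared handling of same-numbered libraries was not tested. Counts were at least 385 per member and library. The parts of depth and of spread between libraries in the precision were not tested.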
